A study of Mus musculus with 2 samples.

Results

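Crosslinks of the RNA-binding protein Tia1 were described on the transcripts of 9 genes that carry the signal of the B cell receptor: Cd79a, Cd79b, Cd22, Ptpn6, Lyn, Syk, Btk, Blnk and Plcg2. The 9 genes were chosen by name for their place in the pathway, out of 21123 coding genes with an annotated 3′UTR, of which 7282 had at least 1 crosslink in it. Binding was measured by iCLIP (individual-nucleotide resolution UV crosslinking and immunoprecipitation), in which UV light links protein to RNA and the cDNA made from the recovered RNA stops beside the link, so that each cDNA marks 1 bound nucleotide. The series held 1 group of 2 samples, replicates 1 and 2, both of cytoplasmic extract from splenic B cells of the strain C57BL/6 grown for 48 h with lipopolysaccharide (LPS, 10 µg/ml). The mice were adult by the study's methods, and no genetic change is named for them. The study describes independent experiments, and no untreated or isotype control was analysed here. Which protein was pulled down is given unequally, as Tia1 in the titles and methods but as its relative Tial1 in the label for the antibody, and it is called Tia1 here.

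The B cell receptor is a membrane immunoglobulin held by the chains Cd79a and Cd79b, whose tails are phosphorylated by Lyn when antigen binds. Syk docks on the phosphorylated tails, the adaptor Blnk gathers Btk and Plcg2 beside it, and Plcg2 cleaves a membrane lipid to release calcium and activate protein kinase C. Cd22 and the phosphatase Ptpn6 (also known as SHP-1), which it recruits, restrain the signal. Tia1 is known as a protein of stress granules that binds U-rich RNA, in 3′UTRs and downstream of 5′ splice sites.

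All 9 transcripts carried crosslinks in the 3′UTR, and the stretch around the highest 3′UTR site of each is printed here to show what Tia1 was linked to. Each sequence holds 29 nt on the coding strand of GRCm38, written 5′ to 3′ as DNA, with the crosslinked nucleotide at position 15 and runs of 3 or more T in capitals. The first sequence of each gene surrounds its highest 3′UTR site, and the second, where there is one, surrounds the highest site of another cluster with at least 20% of the 3′UTR cDNAs.
Cd79a (chr7:24902156-24902184, plus strand): ggtgttaccaaaTTTTTacctataTTTaa
Cd79b, first (chr11:106311403-106311431, minus strand): gccagaatgccaTTTctctctcccattcc
Cd79b, second (chr11:106311527-106311555, minus strand): gatctgtccccatgTTTgggacaggaaag
Cd22, first (chr7:30865845-30865873, minus strand): aattcaataagtgcttcatattaaaagtg
Cd22, second (chr7:30866044-30866072, minus strand): atactctaccccgttcactaatcttacta
Ptpn6 (chr6:124720801-124720829, minus strand): atcttcttgtaaTTTaagtgactgtggtc
Lyn, first (chr4:3790373-3790401, plus strand): ttgaaTTTTTTTTTTTTTTTgcTTTggaa
Lyn, second (chr4:3790769-3790797, plus strand): atgacttgaacaTTTTataaatcatatat
Syk (chr13:52648748-52648776, plus strand): aTTTcagaaattaTTTTaaataaagatct
Btk, first (chrX:134542578-134542606, minus strand): atctaggaatgccTTTcttctctcgttcc
Btk, second (chrX:134542348-134542376, minus strand): aaaatgggttgTTTTgttacaataaaatt
Blnk, first (chr19:40928953-40928981, minus strand): ggaggttcggttactatgatactaatatt
Blnk, second (chr19:40929128-40929156, minus strand): gacatgtcctctgTTTcttcTTTTgagaa
Plcg2 (chr8:117635023-117635051, plus strand): caccttggacaacTTTcttaacttatact
Only the Lyn site lay in a long run of T. The others held short runs of T at or near the crosslinked base, except the Cd22 sites and the first Blnk site, which held none.

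The deposited low-FDR sites, those that passed the authors' test for clustering of crosslinks at a false discovery rate under 0.05, carried 639108 cDNAs in replicate 1, 165081 in replicate 2 and 867271 in the list called on both replicates together (the pooled list). Replicate 1 therefore held 3.87 times the cDNAs of replicate 2, and a weak site was less likely to be called in replicate 2. Of the pooled cDNAs 6.59% lay at sites that neither replicate called alone. All intervals given here cover counting error only. Defining transcripts of B cells were bound as the cell label states, with 8 of 8 markers holding a pooled site and 7 of 8 a 3′UTR site in both replicates. Of the 8, 4 are among the transcripts described here. Of the rest, Ms4a1, Pax5 and Ebf1 had a site in both. Of markers of other cells, 2 of 12 for T cells, 3 of 12 for myeloid cells, 0 of 8 for NK cells and 1 of 8 for erythroid cells had a pooled site. Over those lists the summed 3′UTR cDNAs in replicates 1 and 2 were 14 and 0 for T cells, 29 and 6 for myeloid cells and 25 and 3 for erythroid cells, against 3684 and 901 for B cells. A 3′UTR site in both replicates was found for 0 of 12 T cell, 2 of 12 myeloid, 0 of 8 NK and 1 of 8 erythroid markers. These were Itgam (17 and 4 cDNAs in replicates 1 and 2), Lyz2 (12 and 2) and Hbb-bt (25 and 3). Of the T cell markers, Trac (10 and 0) and Cd3e (4 and 0) had cDNAs called in replicate 1 only. The T cell markers Cd3d, Cd3g, Cd4, Cd8a and Lck and the myeloid marker Csf1r were at 0 in both replicates. RNA abundance was not measured in this series, so a level of crosslinks holds both how much of a transcript there was and how often Tia1 was linked to it, and fewer cells with a transcript cannot be told apart from less RNA per cell.

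A low-FDR site in the 3′UTR in both replicates was found for 8 of the 9 transcripts, all but Cd79a. Among all coding genes with an annotated 3′UTR the share was 21.8%, and among the 7784 with a pooled site in an exon it was 59.3%. With at least 10 cDNAs asked for in each replicate, 6 transcripts remained, Cd79b, Ptpn6, Lyn, Syk, Blnk and Plcg2, where the background was 11.8% of coding genes and 32% of those with an exon site. Over the 9 transcripts 1218 pooled 3′UTR cDNAs fell into 58 clusters, in which neighbouring sites lay at most 15 nt apart. The 20 clusters called in both replicates held 81.5% of these cDNAs, while 33 clusters were called in replicate 1 only, 0 in replicate 2 only and 5 in the pooled list only.

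To set the transcripts beside each other, the cDNAs were divided by the length of the 3′UTR in kb and scaled to 1000000 low-FDR cDNAs in the library (normalised cDNAs per kb). On this scale Plcg2 was highest, with 546 in replicate 1 and 750.0 in replicate 2 (mean 648 ± 144, SD, n = 2), and Blnk followed with 350 and 640 (495 ± 205). Lyn had 335 and 388 (362 ± 38.0), Ptpn6 345 and 217 (281 ± 90.4) and Cd79b 225 and 156 (190 ± 48.8). These 5 formed an upper set in which each overlapped its neighbour, so that the order of neighbours is not settled by 2 replicates. In each replicate Plcg2 was highest of the 5, Blnk next and Cd79b lowest, while Lyn and Ptpn6 changed places. A lower set began with Btk at 90.0 and 45.4 (67.7 ± 31.5), followed by Cd22 at 84.2 and 48.1 (66.1 ± 25.5) and Syk at 72.9 and 38.6 (55.7 ± 24.3). The replicates of these 3 overlapped each other but not those of Cd79b. Cd79a was lowest, at 19.2 in replicate 1 and 0 in replicate 2, and did not overlap Syk. With sites of at least 5 cDNAs in the pooled list, levels were scaled to 1000000 cDNAs at such sites only. They can be set beside each other but not beside the values above. On that scale Btk and Cd79a were at 0, Cd22 at 32.4, below Syk at 63.9, and Plcg2 at 976. The order in the lower set thus rests on weak sites. In the pooled list the median over the 9 was 233 normalised cDNAs per kb, beside 24.8 over all genes with a 3′UTR cDNA. A level per kb also depends on length, and the median 3′UTR over those genes was 1541 nt long. The median over the 9 is the value of Cd79b, with a 3′UTR of 466 nt.

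**Figure D1:**
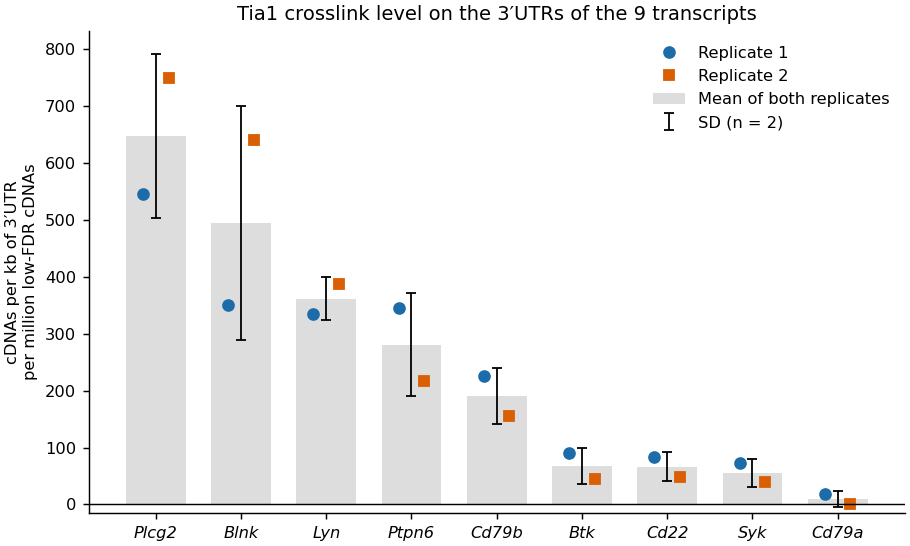
Crosslink level on the 3′UTR of each transcript, in cDNAs per kb of 3′UTR scaled to 1000000 low-FDR cDNAs of the library, for replicate 1 (circles) and replicate 2 (squares), with the mean (bars) and SD (n = 2, lines). The levels run from 648 for Plcg2 to 9.58 for Cd79a, and replicate 2 is above replicate 1 only for Plcg2, Blnk and Lyn.

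Across features, 69.8% of the 1744 pooled cDNAs of the 9 transcripts lay in 3′UTRs (95% exact interval 67.6 to 72.0), 71.6% in replicate 1 and 74.0% in replicate 2. The coding sequence (CDS) held 9.63%, 5′UTRs 11.8%, introns 6.31% and exons of noncoding transcripts 2.47%. For all cDNAs in genes the 3′UTR share was 82.9% and the 5′UTR share 1.52%. Of the 205 cDNAs in 5′UTRs, 191 were on Cd22. Without it the other 8 transcripts had 79.4% of their cDNAs in 3′UTRs and 0.975% in 5′UTRs. Sites in the CDS were found for 9 of 9 transcripts, in the 5′UTR for 5 and in introns for 5, so that every transcript had sites outside the 3′UTR. Of the 21123 coding genes with an annotated 3′UTR, 707 had a pooled 5′UTR cDNA. The share of all genes with a CDS or intron site is not given here, so those counts only describe these transcripts. Some rest on weak sites, as the 5′UTR of Ptpn6 with 2 pooled cDNAs that neither replicate called alone.

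**Figure D2:**
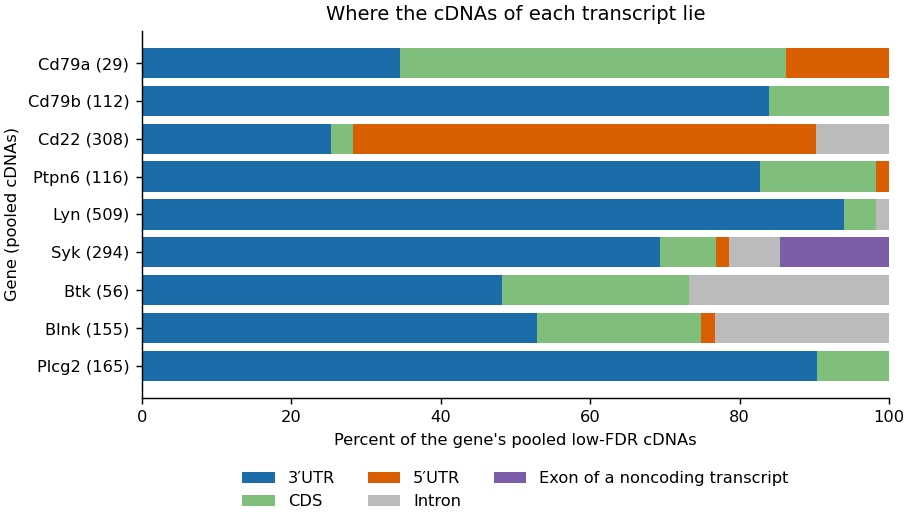
Share of the pooled low-FDR cDNAs of each gene (percent, horizontal axis) in the 3′UTR, CDS, 5′UTR, introns and exons of noncoding transcripts, with the number of cDNAs in brackets. The 3′UTR takes 93.9% in Lyn and 25.3% in Cd22, where the 5′UTR takes 62.0%.

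The signalling chains of the receptor differed from each other. Cd79a, with a 3′UTR of 653 nt (chr7:24901545-24902197), had 10 pooled 3′UTR cDNAs, of which 8 were called in replicate 1 and 0 in replicate 2. At the sites called in replicate 1, replicate 2 contributed 2 cDNAs to the pooled counts, so the transcript was not empty there. Counted in this way, 9 of 9 transcripts had 3′UTR cDNAs of both replicates, where 25.1% of coding genes and 68.2% of those with an exon site did. A count of 0 in replicate 2 allows up to 27.8 normalised cDNAs per kb (3 counts), which lies above the 19.2 of replicate 1. All 10 cDNAs sat in 1 cluster of 12 nt, 17 to 28 nt from the annotated 3′ end, at and just downstream of the TTTTT printed above. More cDNAs of Cd79a, 15 in 4 clusters, lay in its CDS, 5 of them called in replicate 1 and 0 in replicate 2.

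Cd79b, with a shorter 3′UTR of 466 nt (chr11:106311341-106311806), had 94 pooled 3′UTR cDNAs, 67 in replicate 1 and 12 in replicate 2, in 6 clusters. Its largest cluster (chr11:106311396-106311424), 55 to 83 nt from the 3′ end, held 38 of 67 cDNAs in replicate 1 (56.7%) but 1 of 12 in replicate 2 (8.33%). The next (chr11:106311513-106311542) held 13 and 7, and replicate 2 thus had most of its cDNAs upstream of the distal cluster. The share in the largest cluster differed between the libraries (two-sided exact test of Fisher, adjusted p = 0.0297 by Benjamini-Hochberg over 3633 genes, of which 13.3% were called). When each replicate was counted wherever either one had a called site, the adjusted exact p was 0.152, and at sites called in both replicates only it was 1.

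Cd22, the inhibitory sialic acid receptor, was bound mainly at its 5′ end. Its annotated 5′UTRs held 191 pooled cDNAs, 135 in replicate 1 and 54 in replicate 2, while its 3′UTR, of 1134 nt, held 78, 61 in replicate 1 and 9 in replicate 2. Of the 1798 genes with at least 100 exon cDNAs, 1.06% had more in the 5′UTR than in the 3′UTR, and Cd22 ranked 12 of 707 genes by 5′UTR cDNAs. A cluster of 102 nt (chr7:30880125-30880226) held 172 of the 191 cDNAs, with 121 and 49 in the replicates. It began 10 nt after the last base of an annotated exon (chr7, position 30880236) and peaked 11, 12 and 19 nt after it. The 3 peak sites had 22, 20 and 18 cDNAs in replicate 1 and 8, 10 and 11 in replicate 2, so both libraries had the same peaks. The stretch across this exon end is shown with the GT that follows the exon in capitals.
Cd22 exon end (chr7:30880210-30880238, minus strand): cagGTaaaaccatttcaatcttttctctt
The highest site is the middle base of this stretch, at position 15, and closes the run ttt. The cluster is counted as 5′UTR because 1 of 16 annotated Cd22 transcripts (Cd22-203) has an exon there. In 7 of the 16 the position is intronic, and 8 do not reach it. Within 1 to 30 nt after the exon end lay 144 cDNAs, 99 in replicate 1 and 45 in replicate 2. Among 218474 annotated exon ends of coding genes, 1591 had any pooled cDNA in that window outside CDS and 3′UTRs, with a median of 4, and the Cd22 exon end ranked 1. This ranking was made after the values of Cd22 were seen, and it is a description with no test. The files do not tell whether the linked RNA was spliced.

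**Figure D3:**
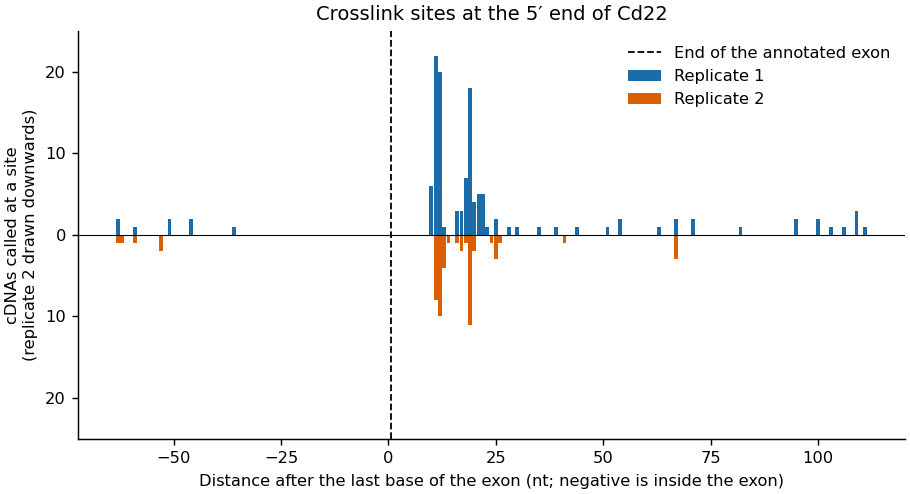
cDNAs called at 5′UTR sites of Cd22, with replicate 1 upwards and replicate 2 downwards on the vertical axis. The horizontal axis is the distance in nt after the last base of the annotated exon (dashed line). Drawn are the clusters of 172 and 13 pooled cDNAs, not the smaller ones of 5 and 1. Both replicates peak 11, 12 and 19 nt after the exon end, and few cDNAs lie inside the exon.

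In the 3′UTR of Cd22, 5 clusters lay 451 nt or more from the 3′ end, and the last 100 nt held 0 cDNAs. The largest by pooled cDNAs (chr7:30866037-30866116) held 24 of 61 cDNAs in replicate 1 and 1 of 9 in replicate 2, a difference that did not pass the test (adjusted exact p = 0.363). An intronic cluster held 19 cDNAs, 16 and 3.

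Ptpn6, the phosphatase that Cd22 recruits, had 96 pooled cDNAs on 363 nt of 3′UTR, 80 in replicate 1 and 13 in replicate 2. A single cluster of 47 nt (chr6:124720786-124720832) held 63 of 80 in replicate 1 (78.8%) and 10 of 13 in replicate 2 (76.9%, adjusted exact p = 1). Its highest site, with 18 cDNAs, lay 108 nt from the 3′ end. ATTTA, the core of AU-rich elements, was within 14 nt of the site for 68.8% of its 3′UTR cDNAs, beside 10.9% over all genes. Of all windows of the 3′UTR of Ptpn6 6.89% held it, so the 68.8% reflects where its main cluster lay. Over the 9 together the share of cDNAs was 7.06%, with Cd79a at 100% and the other 7 at 1.47% or less. A small CDS cluster held 11 cDNAs, 9 of them called in replicate 1 and 0 in replicate 2.

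Lyn, the Src family kinase that starts the signal, had the most 3′UTR cDNAs of the 9, 478 pooled, 357 in replicate 1 and 107 in replicate 2. They were spread over 12 clusters along the 1669 nt of its 3′UTR (chr4:3789945-3791613), and none lay within 243 nt of the 3′ end. The largest cluster (chr4:3790353-3790463), 111 nt wide around the run of 15 T printed above, held 129 cDNAs in replicate 1 (36.1%) and 50 in replicate 2 (46.7%, adjusted exact p = 0.194). The next were clusters of 109 and 78 pooled cDNAs. No cluster held the majority of the cDNAs of Lyn in either replicate.

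Syk, the tyrosine kinase that binds the phosphorylated chains, was the only one of the 9 that passed both tests between the libraries. Cd79a had too few cDNAs for either test, and Plcg2, with a single cluster, could not be tested for cluster share. Of its 204 pooled 3′UTR cDNAs, 161 were called in replicate 1 and 22 in replicate 2. Replicate 2 thus made up 12.0% of the summed cDNAs (exact interval 7.69 to 17.6), below the 20.99% over all genes (adjusted p = 0.0173, two-sided exact binomial test with Benjamini-Hochberg adjustment over 3930 genes). It was the only one of the 8 transcripts tested to pass, where 18.6% of genes did, 11.7% below the common share and 6.9% above it. When each replicate was counted wherever either one had a called site, the share was 14.4% and the adjusted exact p = 0.0780. The distal cluster (chr13:52648729-52648764), 28 to 63 nt from the 3′ end and 36 nt wide in a 3′UTR of 3455 nt, held 59 of 161 cDNAs in replicate 1 (36.6%) and 19 of 22 in replicate 2 (86.4%). This difference passed the test (adjusted exact p = 0.000458), and also with the wider counts (adjusted exact p = 0.0303). At sites called in both replicates only, neither test on Syk passed (adjusted exact p = 1 in both). The other 21 clusters held 1 to 16 pooled cDNAs each, and in replicate 2 the remaining 3 called cDNAs all fell in 1 of them (chr13:52647241-52647245). Outside the 3′UTR, Syk had 18 cDNAs in a CDS cluster of 7 nt (12 and 6) on a run of 6 T, and clusters of 13 and 19 in exons of a noncoding transcript.

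Btk, the Tec family kinase, had 27 pooled cDNAs on a 3′UTR of 400 nt (chrX:134542336-134542735), 23 in replicate 1 and 3 in replicate 2. All 3 of replicate 2 and 8 of 23 of replicate 1 lay in the cluster 23 to 58 nt from the 3′ end. The difference between 34.8% and 100% did not pass the test (adjusted exact p = 0.214), with only 3 cDNAs in replicate 2. Its CDS held 14 cDNAs, 6 called in replicate 1 and 5 in replicate 2.

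Blnk, the adaptor, had 82 pooled cDNAs on a 3′UTR of only 246 nt (chr19:40928927-40929172), 55 in replicate 1 and 26 in replicate 2. Its distal cluster, 23 to 48 nt from the 3′ end, held 19 of 55 cDNAs in replicate 1 (34.5%) and 17 of 26 in replicate 2 (65.4%, adjusted exact p = 0.0855). The share of replicate 2 in the sum, 32.1%, was the highest of the 8 transcripts tested and did not pass (adjusted exact p = 0.0813). A CDS cluster (chr19:40934478-40934520) held 24 cDNAs, 17 and 6, the largest CDS cluster of the 9. Its introns held 36, of which replicate 2 called 1.

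Plcg2, the phospholipase at the end of this chain, had 149 pooled cDNAs on a 3′UTR of 315 nt (chr8:117634828-117635142), 110 in replicate 1 and 39 in replicate 2. All lay in 1 continuous cluster of 106 nt, 28 to 133 nt from the 3′ end. The rest of the gene held 16 cDNAs (14 and 2), all at 2 neighbouring CDS nucleotides, and its introns, of 132554 nt, held 0. Replicate 2 gave 26.2% of the 3′UTR cDNAs (adjusted exact p = 0.318).

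**Figure D4:**
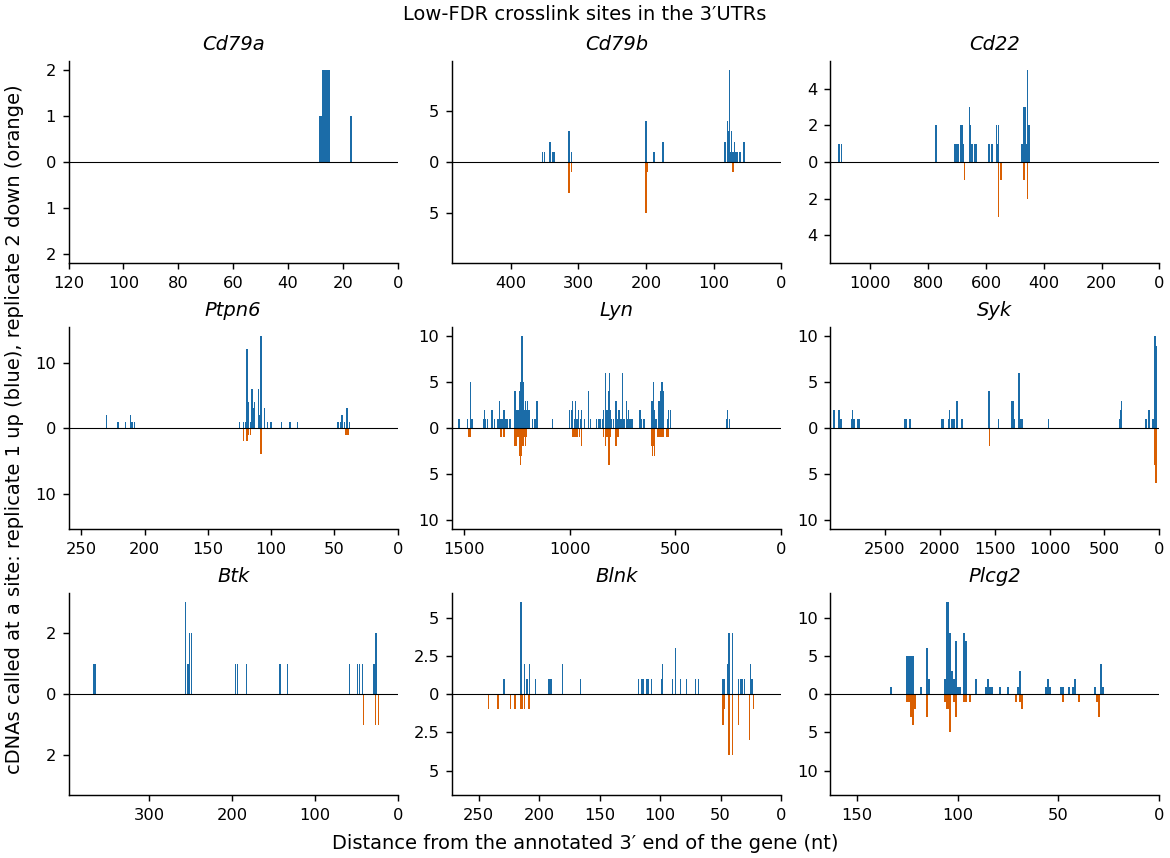
cDNAs called at each 3′UTR site (vertical axis, replicate 1 upwards in blue, replicate 2 downwards in orange) by distance in nt from the annotated 3′ end, each panel on its own scales. The cDNAs of replicate 2 on Syk are nearly all in the cluster 28 to 63 nt from the end, whereas Lyn is bound along most of its 3′UTR and not within 243 nt of the end.

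Binding close to the 3′ end was shared by several of the transcripts. In 6 of 9 the last 100 nt held a larger share of the 3′UTR cDNAs than of its length, beside 37.4% of 4207 genes with at least 20 pooled 3′UTR cDNAs. The share of cDNAs there was 100% for Cd79a, 58.5% for Blnk, 44.7% for Cd79b, 40.7% for Btk, 40.2% for Syk, 38.9% for Plcg2 and 17.7% for Ptpn6, with Cd22 and Lyn at 0. Cd79a, with 10 cDNAs, is under the minimum of 20 set for the genes compared, and without it 5 of 8 had the larger share. These shares are pooled, and for Cd79a and Cd79b they rest on replicate 1. Replicate 2 called 0 cDNAs on the 3′UTR of Cd79a. For Cd79b it had 8.33% of its cDNAs in the last 100 nt, less than their 21.5% of the length, where replicate 1 had 56.7%. The excess was small for Plcg2, where the last 100 nt made up 31.7% of the length. Since 100 nt is 40.7% of the 3′UTR of Blnk but 2.89% of that of Syk, the excess over length was largest for Cd79a and Syk. The polyadenylation hexamer AATAAA began 21 to 33 nt before the 3′ end in 6 of the 9, Ptpn6, Plcg2, Cd79b, Syk, Blnk and Btk. In the Syk sequence above it lies just downstream of the crosslinked run of T. How many of all genes hold the hexamer near the 3′ end is not given here. AATAAA was in the 29-nt window of 5.50% of the cDNAs of the 9 and of 2.32% over all genes, and 2.53% of all 3′UTR windows of that length held it. Against the windows of its own 3′UTR the share was higher in 3 of the 9, Syk (17.2% and 0.695%), Btk (22.2% and 6%) and Ptpn6 (7.29% and 6.61%), and lower in 5.

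The sites of these transcripts held less U than those of most genes. For each transcript the U content of the 29 nt around the sites, weighted by cDNAs, was above the mean of its whole 3′UTR, as it was in 99.3% of genes. The median over the 9 was 36.2% at sites and 25.9% over the 3′UTR, however, whereas over the 4207 genes it was 47.1% and 31.3%. The median rise at sites was 8.39 percentage points for the 9 and 15.3 for all genes. Without Cd79a, which has fewer cDNAs than the genes compared, the medians were 36.0% at sites and 27.4% over the 3′UTR. In 7 of the 9 the U content at sites was under percentile 7 of genes. Lyn was the exception at 47.2% (46.1% in replicate 1 and 52.5% in replicate 2), with Cd79a at 44.5%. Cd79b lay lowest, at 27.1% (28.3% and 24.4%), against 22.7% over its 3′UTR. Replicate 2 windows were richer in U than those of replicate 1 in 5 of 8 transcripts, among them Syk (42.6% and 35.7%).

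The motif TTTTT, searched on the coding strand within the 29-nt windows, was present at 18.9% of the 3′UTR cDNAs of the 9 and at 47.1% of those of all genes, while 7.94% of all 3′UTR windows held it. It was found at sites of 3 transcripts, Cd79a (100%), Lyn (36.8%) and Plcg2 (29.5%). In 5 of the 9, Cd79b, Ptpn6, Syk, Btk and Blnk, no window of the whole 3′UTR held it. Apart from Syk these have short 3′UTRs, of 246 to 466 nt. The share of all genes with TTTTT at sites or without it in the 3′UTR is not given here, so both counts are description.

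**Figure D5:**
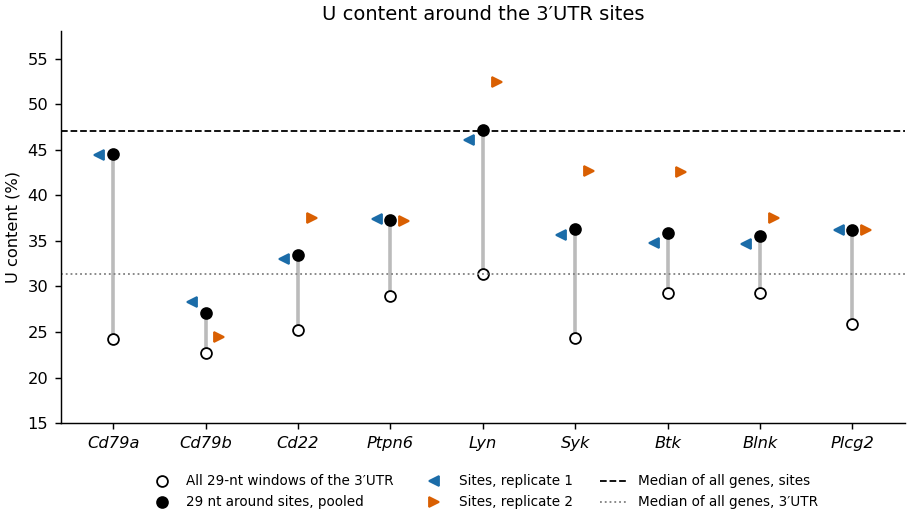
U content in percent of the 29-nt windows around 3′UTR sites (filled circles pooled, triangles for each replicate) and of all windows of the same 3′UTR (open circles), with the medians over 4207 genes as lines. Every transcript is higher at its sites than over its 3′UTR, and 8 of 9 lie under the median of genes at sites (47.1%).

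Crosslinks before the test for clustering were also deposited, and 54.8% of their cDNAs over the whole series lay at low-FDR sites. Between the first and the last low-FDR site of a 3′UTR, and not outside that span, the sites kept held 204 of 254 cDNAs on Syk (80.3%), 94 of 106 on Cd79b (88.7%), 78 of 85 on Cd22 (91.8%), 27 of 28 on Btk (96.4%) and 478 of 490 on Lyn (97.6%). On Cd79a (10 cDNAs), Ptpn6 (87), Blnk (82) and Plcg2 (149) all were kept (100%). For Cd22, Ptpn6 and Syk, whose annotated 3′UTRs form 2 segments, only the segment with the most cDNAs was used. The median was 89.5% over 2639 genes with 1 segment and at least 20 low-FDR cDNAs.

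Most other genes of the pathway were bound as well. Of 84 other genes of B cell receptor signalling, listed by role, 62 (73.8%) had a 3′UTR site in both replicates, beside 21.8% of coding genes and 59.3% of those with an exon site. Another 7 had one in replicate 1 only and 15 no pooled 3′UTR site. With at least 10 cDNAs in each replicate there were 42, where the background was 11.8% and 32%. The 59.3% and 32% are over genes with a pooled exon site, which only 71 of the 84 had, so they are not like for like with counts out of 84. Their median pooled level was 44.2 normalised cDNAs per kb of 3′UTR, where that of the 9 was 233. The 44.2 includes the 15 genes without a pooled 3′UTR site. Not divided by length, the median of the summed 3′UTR cDNAs was 47 for the list and 81 for the 9. By role, a site in both replicates was found for 4 of 5 coreceptors and costimulators, 5 of 11 inhibitory receptors and phosphatases, 4 of 7 other kinases, 7 of 9 adaptors, 2 of 2 ubiquitin ligases and 5 of 6 genes of PI3K and Akt. For exchange factors and GTPases it was 8 of 10, for MAP kinases 5 of 7, for calcium and NFAT 10 of 13, for the NF-kB arm 7 of 8 and for cytoskeleton and signal ends 5 of 6.

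Csk, the kinase that holds Src kinases such as Lyn inactive, had 929 3′UTR cDNAs in replicate 1 and 460 in replicate 2, the most of the list in their sum, and 2381 normalised cDNAs per kb in the pooled list, above all 9. Cd38, an ectoenzyme and coreceptor, had 1111 and 273, and more than Csk in the pooled list (1420 against 1394), and Ptprc (CD45), the phosphatase that activates Src kinases, 964 and 329. The adaptor Grb2 had 558 and 144, the actin regulator Wipf1 544 and 127 and the GTPase Rac1 456 and 147. The calcineurin subunit Ppp3r1 had 444 and 111, the inhibitory Fc receptor Fcgr2b 327 and 218, protein kinase C beta (Prkcb) 398 and 126 and Sh3bp5, a protein that binds Btk, 389 and 102. Genes of the list without any pooled site included Pirb, Cd5, Fgr, Zap70, Akt2, Vav3, Mapk3, Plcg1 and Itpr2. Several of these stand beside a bound relative, as Plcg1 beside Plcg2 and Zap70 beside Syk. Zap70 is also one of the T cell markers counted above. Without RNA abundance, a transcript that was not linked cannot be told apart from one that was not there.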

How the data were processed

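In the iCount pipeline the authors separated samples and removed PCR duplicates by barcodes, mapped reads with Bowtie (version not given in the sources used here) to mm9 with Ensembl 59 annotation, and kept sites with a false discovery rate under 0.05 (100 permutations, 15 nt on each side). The authors deposited, for each crosslinked nucleotide, its count of unique cDNAs, signed by strand and not scaled to depth. The handling of reads with several matches was likewise not given. Labels and methods differ in UV dose and RNase.

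The deposited pooled GRCm38 list was read on the gene's strand against GENCODE M21, with CDS before 3′UTR, 5′UTR, exons of noncoding transcripts and introns. 3′UTR lengths are the union of annotated 3′UTRs without coding bases. Replicate counts came from the replicate lists through the mm9 list, whose rows pair with the GRCm38 list. Sites in 3′UTRs of several genes were left out. Replicate shares were tested by two-sided exact binomial tests and cluster shares by two-sided Fisher's exact tests (scipy 1.17.1), each with Benjamini-Hochberg adjustment over all genes with at least 20 summed cDNAs. Genes with a single 3′UTR cluster were left out of the cluster test. These tests compare 2 libraries, not conditions, and were tested on simulated data. Shares have exact Clopper-Pearson intervals at 95%. Python 3.11.15, numpy 2.4.6, pandas 2.3.3 and matplotlib 3.10.9 were used.

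The named genes are the 9 members, the 10 listed pathway genes with the most 3′UTR cDNAs and every listed gene without a pooled site, apart from a result that is not reported here. The exon-end ranking and the genes named with it were chosen after their values were seen. Members and lists were chosen with earlier results of these data known.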

Additional observations from a re-analysis of the deposited data

How the results depend on the processing

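No paired analysis was possible because the series holds 1 group. The counts of transcripts and of pathway genes with a 3′UTR site in both replicates stayed within 1.5 times under every alternative run, 7 to 9 and 42 to 69. The count with at least 10 cDNAs in each replicate was 3 with sites of at least 5 cDNAs (Lyn, Plcg2 and Syk), and ran from 6 without replicate 1 to 8 without replicate 2. The 3′UTR share of the cDNAs was 72.6% with sites of at least 2 cDNAs, 72.1% in the sum of the replicate calls, 71.6% to 74.0% without either replicate and 79.4% without Cd22. The count of transcripts whose replicate 2 share departed (exact binomial test), 1 as reported, was 0 at sites called in both replicates (0 at an unadjusted p under 0.05), 0 with sites of at least 2 cDNAs (1 unadjusted) and 0 when each replicate was counted wherever either had a called site (2 unadjusted). Adjusted p for Syk ran from 0.0135 to 1. The count whose cluster share differed (Fisher's exact test), 2 as reported, was 0 at sites called in both replicates (0 unadjusted) and 1, Syk, with those wider counts. The wider counts of both tests and the share without Cd22 were chosen after seeing the data. Neither test can be run without a replicate. The median level was 156 normalised cDNAs per kb without replicate 1 and 225 without replicate 2. With sites of at least 5 cDNAs the pooled level of Btk went from 77.8 to 0, of Cd79a from 17.7 to 0, of Cd22 from 79.3 to 32.4 and of Plcg2 from 545 to 976. The later values were scaled to the cDNAs at such sites only, a smaller total, so the rise of Plcg2 is no gain in cDNAs. The 58 clusters became 34 when joined across 50 nt. Median U content at sites was 37.9% in windows of 21 nt, 33.7% in windows of 41 nt and 33.9% with each site counted once. The cause was not tested in any of these. The depth of replicate 2 limits all counts on Cd79a, Btk and Cd22.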

Other observations

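Sites just after exon ends were also present, at lower counts, in other transcripts of the pathway, chosen here after their values were seen. Within 1 to 30 nt after an annotated exon end and outside CDS and 3′UTRs, Fcgr2b, the inhibitory Fc receptor of B cells, had 37 pooled cDNAs at 1 exon end, Ptprc 23 and Cd72, another inhibitory receptor, 20. At the exon ends of the other transcripts of the 9, Blnk had 5 and 4 cDNAs at 2 exon ends and Btk 3 at 1, against 144 for Cd22.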
